A study of Zea mays with 6 samples.

Results

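The abundant genes that were at least 2-fold higher in fdl1-Mu coleoptile tips are described here. FDL1 (FUSED LEAVES1) encodes ZmMYB94, an R2R3 MYB transcription factor of cuticle formation, and seedlings of the fdl1-Mu mutant show fused leaves and wax defects. The genes were selected on their measured values in the comparison of mutant and wild-type tips. A gene was taken where the authors' differential expression program gave it status OK, where its level was above 0 in wild type and at least 20 FPKM in fdl1-Mu, and where the ratio of fdl1-Mu to wild type was at least 2. FPKM relates the fragments of a gene to transcript length and library size, so that levels of different genes are compared per length. This rule took 172 of the 39283 genes listed and of the 23139 with status OK. Of the 23125 genes of status OK above 0 in wild type, 5.63% had a ratio of at least 2, and of the 6945 of these that reached 20 FPKM in fdl1-Mu, 2.48% did, which are the 172 genes themselves. Since the same values chose the genes, their ratios and gains are a description and carry no test.

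The coleoptile is the sheath around the young leaves of a grass seedling, and its tip was sampled in maize inbred W22. There were 3 samples of wild type and 3 of fdl1, each a pool of 5 tips that were 0.3 to 0.4 cm long, harvested 3 days after germination at 28 °C. Both groups shared the W22 background, and the labels name genotype, wildtype or fdl1/Zmmyb94 mutant, as their difference. The fdl1-Mu allele carries a transposon in the second exon of FDL1. According to the methods, coleoptiles were collected from homozygous and heterozygous fdl1-Mu plants. The methods do not say in which group the heterozygous plants were placed, so the group called wild type may include carriers of the allele. According to the labels, coleoptile tips that looked normal were among the fdl1 samples. Both groups were mapped to the B73v3 genome, another inbred than the one sampled.

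The deposited table gives 1 FPKM value per gene and group, which is the authors' value over the 3 samples. Values for single samples are not given there, and the authors' own test columns were not used here. Differences are therefore not set against the spread between samples, and the read depth is unknown. FDL1 itself (GRMZM2G056407, chromosome 7 of B73v3, 167647343 to 167649332) was at 4.58 FPKM in the group labelled wild type and at 12.7 FPKM in the group labelled fdl1-Mu, so the targeted gene was not lower in the mutant group, and every direction given here rests on the labels. The median ratio of all genes of at least 1 FPKM in either group was 1.01. Of the tissue markers, the 4 genes of shoot epidermis and cuticle were present at 17.5 to 894 FPKM in wild type and 16.1 to 814 FPKM in fdl1-Mu. While 0 of the 4 were higher in fdl1-Mu, ZmKCS8 was at 53.5 and 53.2 FPKM, AD1 at 17.5 and 16.1, ZmLTP1.6 at 894 and 814, and GLOSSY6 at 206 and 144. The paper reports binding of FDL1 in vitro at GLOSSY6, ZmLTP1.6 and AD1. These genes are therefore no neutral measure of the amount of epidermis, which was not tested. Of 5 endosperm genes, o2 and fl2 were listed at 0 and wx1 was under 1 FPKM in both groups. The endosperm gene sh2 was at 2.17 and 1.53 FPKM and bt2 at 8.59 and 7.81 FPKM. The root markers found were rth3, at 9.47 FPKM in wild type and 9.16 FPKM in fdl1-Mu, and rtcs1, at 0.39 and 0.68 FPKM.

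Coleoptile cells grow by taking up water while the wall is loosened. Aquaporins are channels that carry water across the plasma membrane and the tonoplast, expansins and xyloglucan endotransglucosylases loosen and remodel the wall, and peroxidases and phenolic compounds cross-link it. The cuticle, a layer of cutin and wax over the epidermis, limits water loss, and plants facing water deficit or pathogens make osmoprotective proteins, hydrolases against fungal walls, protease inhibitors and enzymes that conjugate toxic compounds. Genes of these families are among the 172, and whether they are more frequent there than among all abundant genes was not tested.

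The 172 genes ranged from 3.33 to 949.5 FPKM in wild type, with a median of 18.5, and from 20.05 to 2321 FPKM in fdl1-Mu, with a median of 47.4. Their ratios ran from 2.003 to 13.6 with a median of 2.44, and 96 of them lay between 2 and 2.5. A further 38 lay between 2.5 and 3, 30 between 3 and 5, and 8 at 5 or above. Most genes therefore sat close to the threshold, and the other 6773 abundant genes had a median ratio of 1.02. Of the 172, 79 were already at 20 FPKM or more in wild type and 93 were below it. For the 31 genes under 10 FPKM in wild type, the threshold of 20 FPKM alone required a ratio above 2, so their higher ratios follow in part from the rule.

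**Figure D1:**
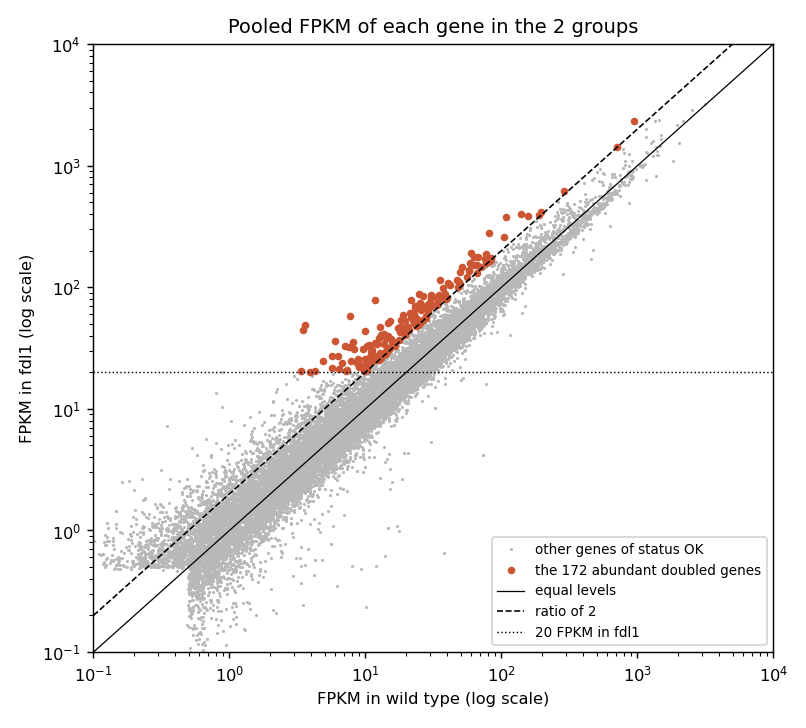
Pooled FPKM of each gene in wild type (x axis) and fdl1-Mu (y axis), both on log scales, 1 point per gene of status OK; genes under 0.1 FPKM in either group are not drawn. The 172 abundant genes (red) lie above the dashed line of ratio 2 and the dotted line of 20 FPKM, and most lie close to the dashed line, with 2 genes near 3.5 FPKM in wild type far above it.

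Summed over the 172 genes, FPKM went from 6824 in wild type to 16676 in fdl1-Mu. They held 1.03% of the summed FPKM of all genes of status OK in wild type, and 2.44% in fdl1-Mu tips. The gain of a gene, its FPKM in fdl1-Mu less that in wild type, ran from 10.6 to 1371, with a median of 27.7. Gains summed to 9852 FPKM, which is 13.5% of the summed gain of the 12120 genes of status OK that were higher in fdl1-Mu. The gains were uneven, since the single largest held 13.9% of the sum, the 10 largest 40.2% and the 20 largest 50.7%, while 53 genes gained under 20 FPKM. By level, 7 of the genes were among the 1000 most abundant genes of wild-type tips and 30 among those of fdl1-Mu tips.

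Largest gain and largest ratio were found in different genes, and no gene was among both the 20 largest gains and the 15 largest ratios. The 20 genes with the largest gains started from 51.6 FPKM or more in wild type and had ratios of 2.03 to 3.51. Of the 15 genes with the largest ratios, 14 were under 10 FPKM in wild type, and their ratios were 4.25 or more.

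The gene with the largest gain was AC206425.3_FG002 (chromosome 3, 131958379 to 131959124), for which no description was found. It was at 949.5 FPKM in wild type and 2321 FPKM in fdl1-Mu, and it moved from rank 33 to rank 6 among all genes of status OK. GRMZM2G096680 (chromosome 6, 39431501 to 39432324), whose homolog belongs to the potato inhibitor I family of serine protease inhibitors, went from 703 to 1431 FPKM. Such inhibitors block digestive proteases of insects and microbes. An O-methyltransferase gene, GRMZM2G085924 (chromosome 2, 127723813 to 127725400), went from 289 to 618 FPKM. These 3 genes were the only ones of the 172 among the 100 most abundant genes of fdl1-Mu tips.

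The largest ratio belonged to GRMZM2G113761 (chromosome 1, 86369094 to 86370699), whose closest Arabidopsis homolog is the xyloglucan endotransglucosylase/hydrolase XTH32. It went from 3.61 FPKM in wild type to 49.1 FPKM in fdl1-Mu, a ratio of 13.6. Close behind it was a class III peroxidase gene, GRMZM2G044049 (chromosome 2, 213518053 to 213519504), at 3.46 and 44.7 FPKM, a ratio of 12.9. No other gene of the 172 had a ratio above 8. Next came the aquaporin gene TIP2-2 with a ratio of 7.55, and then GRMZM2G016836, a gene of the Rossmann-fold dehydrogenase superfamily, at 11.8 and 78.2 FPKM. A cytochrome P450 gene, GRMZM2G039278, whose homolog is CYP81D8, went from 3.33 to 20.4 FPKM.

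**Figure D2:**
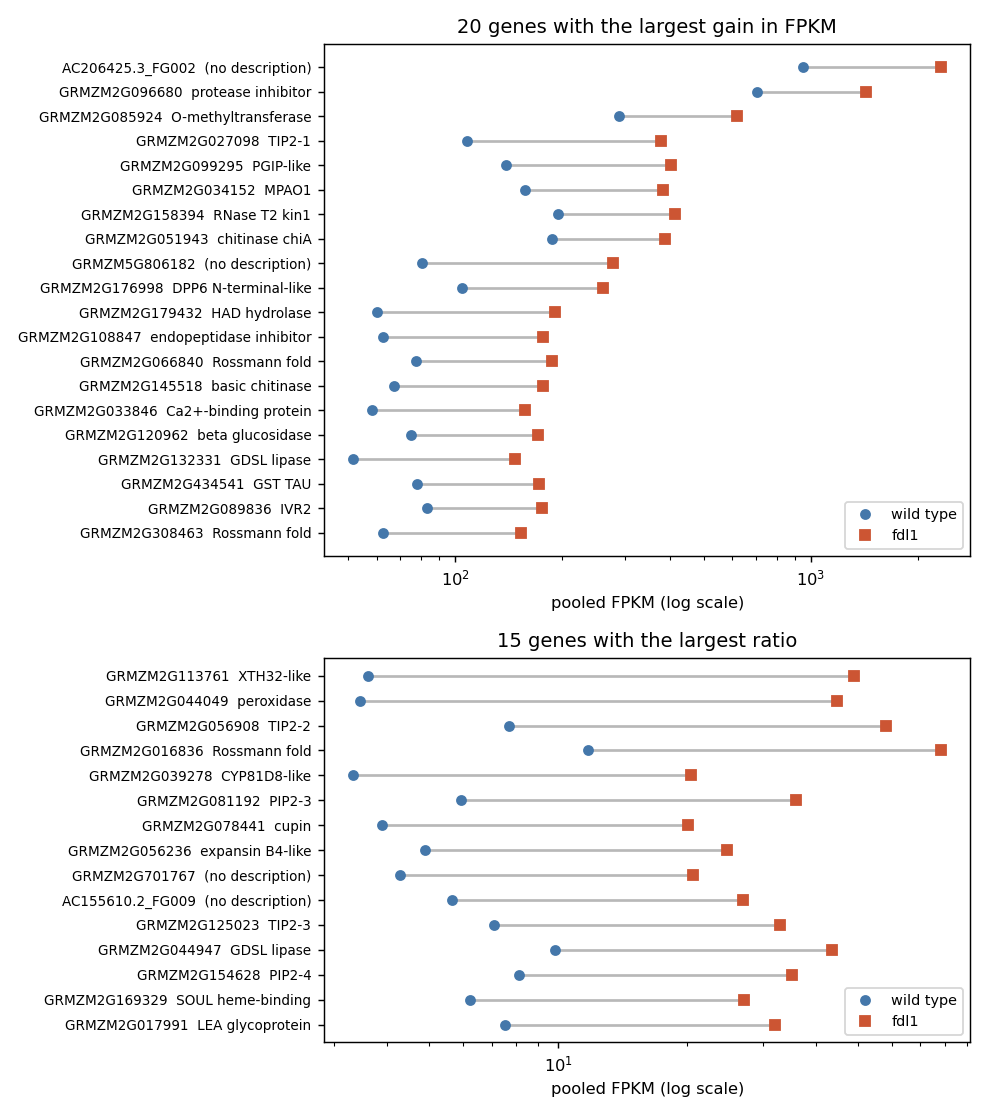
Pooled FPKM on a log axis in wild type (blue circles) and fdl1-Mu (red squares) of the 20 genes with the largest gain (upper panel) and the 15 with the largest ratio (lower panel), 1 line per gene. The upper panel starts at 51.6 FPKM and has short lines of similar length, while in the lower panel 14 of the 15 genes start below 10 FPKM and the lines of GRMZM2G113761 and GRMZM2G044049 are the longest.

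The genes were grouped by the description of their closest Arabidopsis homolog, which the study's annotation gives for 152 of them. The groups with the highest median ratios were the aquaporins, at 4.49 over 6 genes, and the genes of light harvesting and the plastid, at 2.86 over 7 genes. The lowest median ratio, 2.12, was that of the 11 genes of phenylpropanoid synthesis and methyl transfer. By summed gain the order was different, since the 20 genes with no description held 20.9% of the gain, the 10 defence genes 15.7%, the 21 other oxidoreductases and hydrolases 9.26% and the 15 cell wall genes 7.56%. The first 2 of these shares rest largely on single genes. AC206425.3_FG002 gained 1371 of the 2061 FPKM of the genes with no description, and GRMZM2G096680 gained 728 of the 1550 FPKM of the defence genes. Names and roles below come from homology and were not measured.

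**Figure D3:**
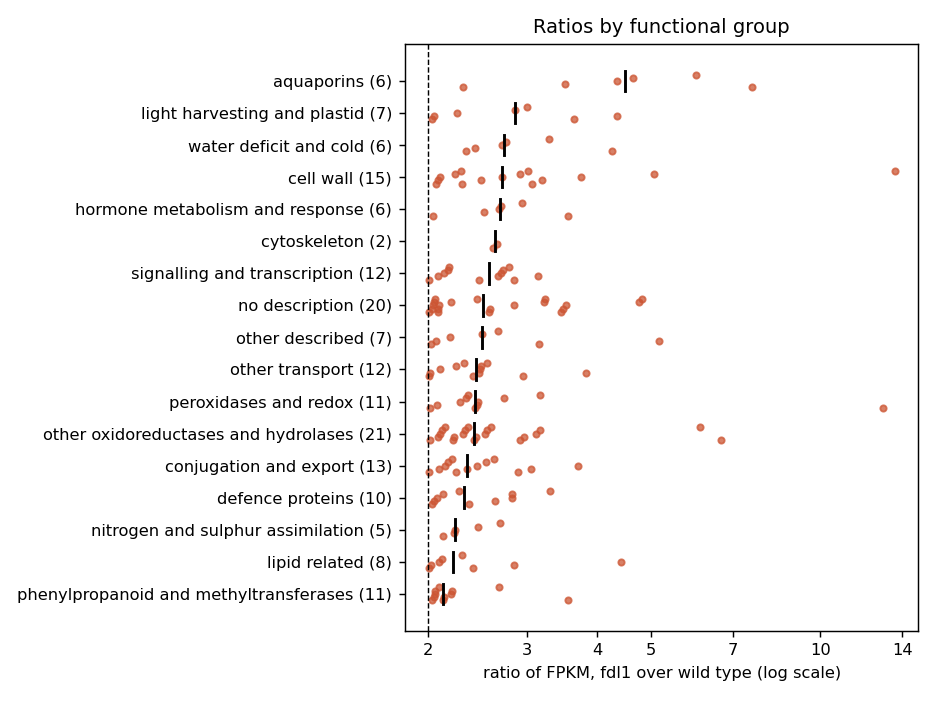
Ratio of FPKM in fdl1-Mu to wild type on a log axis, 1 point per gene, for 17 functional groups with the number of genes in parentheses; black bars are group medians and the dashed line is the threshold of 2. Aquaporins have the highest median, 4.49, and the 2 points beyond 10 are a gene of the cell wall group and a peroxidase gene. All genes shown were selected for a ratio of at least 2, and the aquaporins had the lowest median level in wild type, 7.90 FPKM.

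The aquaporin genes were 3 of the plasma membrane type (PIP) and 3 of the tonoplast type (TIP). TIP2-1 (GRMZM2G027098, chromosome 4, 152458301 to 152459746), the most abundant of them, went from 108 FPKM in wild type to 378 FPKM in fdl1-Mu. TIP2-2 (GRMZM2G056908) went from 7.70 to 58.1 FPKM and TIP2-3 (GRMZM2G125023) from 7.10 to 32.9 FPKM. All 3 belong to the same TIP subfamily. Among the plasma membrane channels, PIP1-2 (AC209208.3_FG002) went from 65.8 to 152 FPKM. PIP2-3 (GRMZM2G081192) went from 5.95 to 35.8 FPKM and PIP2-4 (GRMZM2G154628) from 8.10 to 35.2 FPKM. Thus 4 of the 6 genes were under 10 FPKM in wild type.

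The remaining aquaporin genes with a PIP or TIP name were read beside them. Of all 23139 genes of status OK, 12120 were higher in fdl1-Mu. All 9 PIP genes of status OK were higher, 3 of them selected by the rule, with ratios between 1.53 for PIP2-1 and 6.02 for PIP2-3. The PIP family summed to 1112 FPKM in wild type and 2005 FPKM in fdl1-Mu. The most abundant, PIP2-6, went from 500.1 to 888 FPKM, a larger gain than that of any aquaporin of the 172, at a ratio of 1.78. PIP1-5 had a ratio of 3.81 but reached only 11.8 FPKM. Of the 8 TIP genes of status OK, 6 were higher in fdl1-Mu, 3 of them selected by the rule. Outside the TIP2 subfamily, no TIP gene exceeded 4 FPKM in either group. TIP4-4 was lower, at 0.87 FPKM in wild type and 0.38 FPKM in fdl1-Mu.

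**Figure D4:**
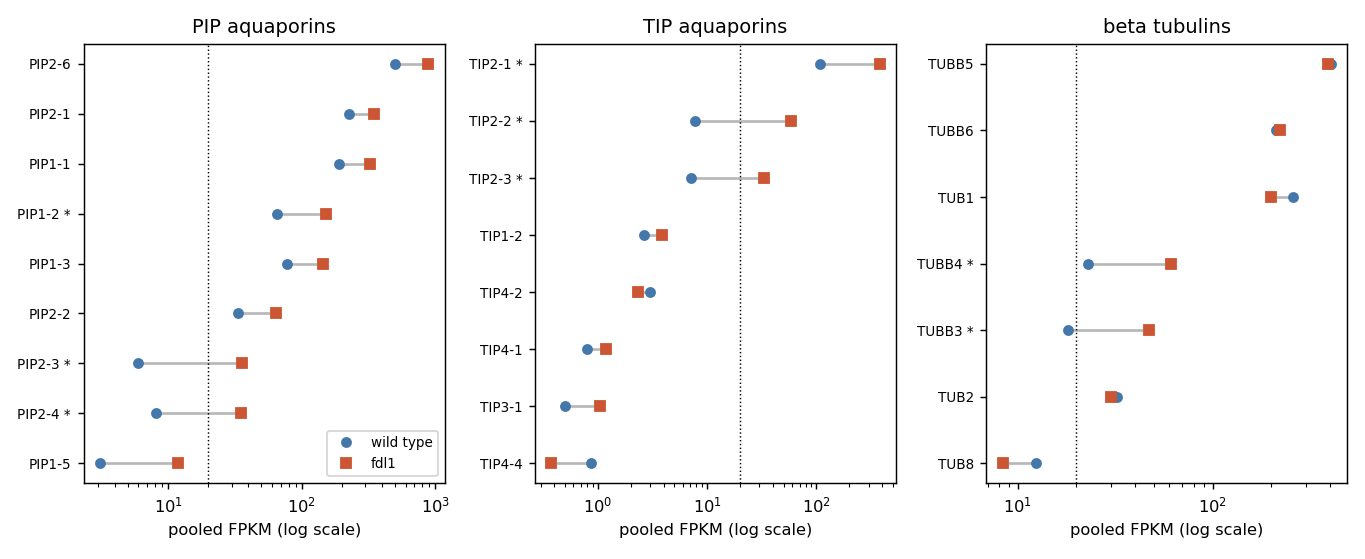
Pooled FPKM on log axes in wild type (blue circles) and fdl1-Mu (red squares) of all PIP aquaporin, TIP aquaporin and beta tubulin genes of status OK found by name; asterisks mark genes of the 172 and the dotted line is 20 FPKM. All 9 PIP genes are higher in fdl1-Mu, the 3 TIP2 genes stand above the other TIP genes in fdl1-Mu, and of the beta tubulins TUBB3 and TUBB4 are the only ones with a ratio above 2.

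The cell wall group of 15 genes summed to 415 FPKM in wild type and 1160 FPKM in fdl1-Mu. Its most abundant gene was GRMZM2G099295 (chromosome 2, 206607450 to 206608855), a homolog of a polygalacturonase inhibiting protein, which blocks enzymes that break down pectin. It went from 138 to 403 FPKM. A proline-rich protein gene, GRMZM2G114356, was at 41.6 and 103 FPKM, and GRMZM2G012904, which encodes a protein of the wall-associated DUF642 family, at 26.5 and 84.5 FPKM. Besides the XTH32-like gene with the largest ratio, a second XTH32-like gene, GRMZM2G413044, went from 29.8 to 68.3 FPKM at a ratio of 2.29. These genes share their closest homolog but differed in starting level and in ratio. GRMZM2G110145, at 31.0 and 71.2 FPKM, is closest to the cellulose-synthase-like gene CSLD2 in the study's annotation, whereas the RefSeq name is CslF6-1, so its identity within the superfamily is not settled by the names.

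Of the wall genes, 7 were expansins or expansin-like genes, with ratios of 2.07 to 5.05. The alpha expansin expa1 (GRMZM2G339122) was the most abundant, at 40.3 FPKM in wild type and 109 FPKM in fdl1-Mu. The beta expansin expB5 (GRMZM2G013671) went from 12.6 to 38.4 FPKM. A gene like expansin B2, GRMZM2G021427, went from 13.6 to 41.1 FPKM. An expansin B4-like gene, GRMZM2G056236, had the largest ratio of them, at 4.91 and 24.8 FPKM. Beta expansins are the expansin branch that is expanded in grasses. Over all genes of status OK above 0 in wild type, 5.63% had a ratio of at least 2, and 12120 of the 23139 genes of status OK were higher in fdl1-Mu. All 12 named expansin genes of status OK were higher in fdl1-Mu, with a median ratio of 1.89. A ratio of at least 2 was found for 5 of the 12, of which 3 were selected by the rule for it and 2 were outside the rule. The most abundant of the 12, expB8 and expB2, had ratios of 1.88 and 1.84 and fell outside the rule.

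Peroxidase and redox genes numbered 11, of which 6 were class III peroxidases, secreted enzymes that use hydrogen peroxide to couple phenolics in the wall. Apart from GRMZM2G044049, the peroxidases had ratios of 2.07 to 3.16, and the most abundant, GRMZM2G108219, was at 70.9 FPKM in wild type and 147 FPKM in fdl1-Mu. GRMZM2G085967 was at 33.6 and 82.7 FPKM and GRMZM2G107228 at 34.1 and 77.7 FPKM. The polyamine oxidase gene mpao1 (GRMZM2G034152, chromosome 10, 62260920 to 62265303), whose maize enzyme makes hydrogen peroxide in the cell wall, went from 157 to 384 FPKM. Monodehydroascorbate reductase regenerates ascorbate, and its gene GRMZM2G134708 was at 47.4 and 115 FPKM. GRMZM2G107562, of the copper-binding cupredoxin superfamily, was at 81.7 and 165 FPKM. A further peroxidase gene, GRMZM2G089982, at 18.0 and 42.5 FPKM, overlaps another listed locus.

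The 10 genes of the defence group summed to 1345 FPKM in wild type and 2895 FPKM in fdl1-Mu. Chitinases, which cut the chitin of fungal walls, gave 3 of them. The gene named chiA (GRMZM2G051943) went from 187 to 389 FPKM, a basic chitinase gene (GRMZM2G145518) from 67.2 to 177 FPKM, and GRMZM2G129189 from 12.3 to 25.2 FPKM. The ribonuclease T2 gene kin1 (GRMZM2G158394) was at 195 and 414 FPKM. A second inhibitor of serine proteases, GRMZM2G108847, was at 62.7 and 177 FPKM. A beta glucosidase gene, GRMZM2G120962, was at 75.2 and 171 FPKM. Osmotins are thaumatin-like proteins made under salt and pathogen attack, and 2 genes of this kind, GRMZM2G092474 and GRMZM2G010048, reached 55.8 and 34.2 FPKM in fdl1-Mu from 23.6 and 12.1 FPKM. Ratios of the defence genes were narrow in range, 2.03 to 3.30, while levels in fdl1-Mu ran from 21.2 to 1431 FPKM.

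Genes for conjugation and export numbered 13, and 8 of them encoded glutathione S-transferases, which attach glutathione to reactive compounds. Their ratios were 2.14 to 3.69. The most abundant was a tau class gene, GRMZM2G434541, at 77.9 FPKM in wild type and 172 FPKM in fdl1-Mu. The genes gst5 (GRMZM2G308687) and gst6 (GRMZM2G129357) went from 58.0 to 136 FPKM and from 28.1 to 71.3 FPKM, and a phi class gene, GRMZM2G096247, was at 21.6 and 56.6 FPKM. The gene gst7 (GRMZM2G028556), with the largest ratio, went from 12.7 to 46.9 FPKM. Of the 29 genes of status OK that carry a gst name, 25 were higher in fdl1-Mu, 11 had a ratio of at least 2 and 1, gst30, was lower by more than 2-fold, at 4.83 and 1.35 FPKM. Of the 8 genes, 5 are among these 29, where they were selected for a ratio of at least 2, and the other 3 have no name that begins with gst. Outside the rule, 6 of the named genes had a ratio of at least 2. Over all genes of status OK above 0 in wild type, 5.63% had such a ratio. Of the 23139 genes of status OK, 12120 were higher in fdl1-Mu. The 2 most abundant named genes, gst1 and gst3, had ratios of 1.61 and 1.10. Near-identical copies occur in this family, and how reads were shared among them is not known.

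The same group held 2 glucosyltransferase genes, GRMZM2G010987 at 23.1 and 70.4 FPKM and GRMZM2G083935 at 23.2 and 67.2 FPKM. Such enzymes attach sugars to hormones and phenolics. It also held 3 genes of MATE transporters, which carry compounds out of the cytosol, with ratios of 2.003 to 2.24. The highest of these, GRMZM2G151903, went from 37.1 to 83.1 FPKM.

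Of the 11 genes of phenylpropanoid synthesis and methyl transfer, 6 were O-methyltransferases. After GRMZM2G085924, the most abundant was GRMZM2G041866, at 24.7 FPKM in wild type and 87.8 FPKM in fdl1-Mu, and GRMZM2G147503 was at 27.7 and 56.2 FPKM. BX14 (GRMZM2G127418), an O-methyltransferase of benzoxazinoid defence compounds in maize, was at 11.4 and 24.97 FPKM. Steps of phenylpropanoid metabolism were present as single genes. A gene named 4CL (GRMZM2G075333), for the ligase that activates coumarate, went from 14.2 to 30.1 FPKM, and a CYP98A3-like hydroxylase gene (GRMZM2G138074) from 12.4 to 27.2 FPKM. A cinnamyl-alcohol dehydrogenase gene (GRMZM2G090980) was at 26.3 and 54.0 FPKM, and the aldehyde dehydrogenase gene rf2c (GRMZM2G071021) at 24.5 and 50.4 FPKM. The chalcone synthase-like gene GRMZM2G114471, for the entry to flavonoids, was at 14.1 and 28.9 FPKM. All of these single-step genes lay between ratios of 2.05 and 2.21.

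Oxidoreductases and hydrolases outside these pathways formed the largest group by number, with 21 genes. GRMZM2G179432, a haloacid dehalogenase-like hydrolase gene, was at 60.1 FPKM in wild type and 190.2 FPKM in fdl1-Mu. The invertase gene ivr2 (GRMZM2G089836), whose vacuolar enzyme splits sucrose into hexoses, went from 83.4 to 175 FPKM. The group held 5 genes for cytochromes P450, of which GRMZM2G323830, a CYP96A10-like gene, was the most abundant at 22.8 and 50.7 FPKM. GRMZM2G181227, like a beta-hydroxyisobutyryl-CoA hydrolase of valine breakdown, was at 49.6 and 106 FPKM. A zinc-binding dehydrogenase gene, GRMZM2G152975, was at 25.2 and 74.6 FPKM and a cyclase family gene, GRMZM2G061702, at 21.1 and 61.7 FPKM. The 3 Rossmann-fold genes reached 78.2 to 187 FPKM in fdl1-Mu.

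Light harvesting and plastid genes numbered 7. CAB1 (AC207722.2_FG009), for a chlorophyll a/b binding protein of photosystem II, was at 21.4 FPKM in wild type and 78.0 FPKM in fdl1-Mu. Cab-m7 (GRMZM2G402936) went from 11.7 to 35.0 FPKM and GRMZM2G057281, an LHCB3-like gene, from 7.19 to 20.6 FPKM. GRMZM2G355752, whose closest homolog is the early light-induced protein ELIP1, was at 48.6 and 110 FPKM. Early light-induced proteins bind chlorophyll under light stress. GRMZM2G169329, for a SOUL heme-binding protein, had the largest ratio of the group, at 6.25 and 27.1 FPKM. A gene for gamma-tocopherol methyltransferase, an enzyme of vitamin E synthesis, GRMZM2G035213, was at 23.6 and 48.4 FPKM. GRMZM2G059191, for ferredoxin-NADP oxidoreductase, the last enzyme of photosynthetic electron transport, was at 14.05 and 28.5 FPKM. CAB1 and Cab-m7 are also 2 of the markers of green leaf cells, and they were the most abundant of these in fdl1-Mu. The 13 markers found summed to 64.0 FPKM in wild type, with a range of 0 to 21.4, and to 144 FPKM in fdl1-Mu, with a range of 0 to 78.0. Higher in fdl1-Mu were 7 of the 13, and 4 were under 1 FPKM in both groups. These sums and counts include CAB1 and Cab-m7, which the rule selected for a ratio of at least 2. The difference between the sums lies mostly in these 2 genes and is therefore no separate result on green cells. Outside them, no marker exceeded 16.2 FPKM in wild type or 7.43 FPKM in fdl1-Mu. The small Rubisco subunit gene ssu1 went from 1.88 to 4.41 FPKM, whereas ppdk1, for an enzyme of the C4 cycle, was lower in fdl1-Mu, at 16.2 and 7.43 FPKM. The part of green cells in the result was not tested. In tissue samples like these, more cells of a type and more RNA per cell cannot be told apart.

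The 6 genes tied to water deficit and cold had ratios of 2.33 to 4.25. AGA1 (GRMZM2G340656), for an alkaline alpha-galactosidase that breaks down raffinose sugars, was at 49.7 FPKM in wild type and 135 FPKM in fdl1-Mu. BURP3 (GRMZM2G106980), with a BURP domain, was at 57.4 and 139 FPKM. Genes of the LEA hydroxyproline-rich glycoprotein family, GRMZM2G017991 and GRMZM5G800014, went from 7.54 to 32.1 FPKM and from 9.54 to 31.3 FPKM. The dehydrin-like gene GRMZM2G147014, closest to Arabidopsis COR47, was at 10.8 and 25.2 FPKM, and GRMZM2G099984, of a low temperature and salt responsive family, at 11.1 and 30.6 FPKM. The locus of AGA1 is the longest of the 172 at 37523 bp and overlaps another listed locus, with which it may share reads.

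Hormone genes numbered 6. An ethylene-forming enzyme gene, GRMZM2G052422, encodes the last step of ethylene synthesis and was at 77.1 FPKM in wild type and 158 FPKM in fdl1-Mu. For gibberellin, a gene like ent-kaurene synthase, AC214360.3_FG001, for an early synthesis step, was at 14.2 and 38.3 FPKM, and a gibberellin 2-oxidase gene, GRMZM2G427618, for an inactivating step, at 13.6 and 34.3 FPKM. Genes of making and of breaking down gibberellin were thus both in the set. TIFY25 (GRMZM2G116614), of the JAZ repressors of jasmonate response, was at 8.76 and 25.8 FPKM. GRMZM2G141473, an aldehyde oxidase gene, was at 17.2 and 46.1 FPKM, and GRMZM2G047613, a homolog of methyl esterase MES7, at 6.72 and 23.9 FPKM.

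Lipid related genes numbered 8. GDSL lipases include enzymes of cutin assembly in other plants, and GRMZM2G132331, of this family, was at 51.6 FPKM in wild type and 147 FPKM in fdl1-Mu. A second GDSL gene, GRMZM2G044947, was at 9.86 and 43.6 FPKM. A pair of genes for calcium-dependent lipid-binding proteins, GRMZM2G011513 and GRMZM2G136486, went from 83.7 to 169 FPKM and from 47.6 to 99.7 FPKM. GRMZM2G372074, of the lipid-transfer protein superfamily, was at 38.4 and 88.3 FPKM, with an overlap with another locus, and GRMZM2G162276, of the same superfamily, at 15.5 and 37.2 FPKM. Lipid-transfer proteins bind lipids outside the cell membrane. GRMZM2G142315, like the Sec14 lipid carriers, was at 9.93 and 21.1 FPKM, and an acyl activating enzyme gene, GRMZM2G120539, at 12.6 and 25.2 FPKM.

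Signalling and transcription genes numbered 12, with ratios of 2.01 to 3.14. The most abundant encoded a calcium-binding protein (GRMZM2G033846), at 58.2 FPKM in wild type and 157 FPKM in fdl1-Mu. Only 2 genes of the group encoded DNA-binding transcription factors by their description. These were a heat shock factor gene, GRMZM2G105348, at 25.4 and 70.8 FPKM, and a WRKY gene, GRMZM2G060918, at 10.4 and 22.6 FPKM. After the calcium-binding protein gene, the largest gains were those of an RCC1 family gene, GRMZM2G003565, at 65.7 and 132 FPKM, and of a receptor-like kinase-related gene, GRMZM2G043878, at 37.0 and 98.6 FPKM. RING finger proteins often attach ubiquitin to other proteins, and GRMZM2G137440, of this kind, was at 30.3 and 86.3 FPKM. A leucine-rich repeat gene, GRMZM2G114127, was at 13.0 and 40.8 FPKM, and GRMZM2G041463, like a SOS3-interacting protein kinase of salt signalling, at 15.7 and 33.5 FPKM.

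Transport genes outside the aquaporins and MATE carriers numbered 12. The largest gains were those of GRMZM2G149576, of the TauE/SafE sulfite exporter family, at 34.9 FPKM in wild type and 86.4 FPKM in fdl1-Mu, and of a cation efflux gene, GRMZM2G118497, at 25.6 and 65.1 FPKM. Syntaxins act in vesicle fusion, and a syntaxin gene, GRMZM2G120115, was at 18.1 and 53.6 FPKM. An amino acid transporter gene, GRMZM2G097802, was at 27.7 and 58.1 FPKM. The group also included mha4 (GRMZM2G006894), for a plasma membrane proton pump, at 24.5 FPKM in wild type and 49.2 FPKM in fdl1-Mu, and GRMZM2G302604, for a polyol and monosaccharide carrier, at 19.1 and 45.8 FPKM. Proton pumps acidify the wall, a condition under which expansins act. A pair of MtN3 genes, the family of SWEET sugar carriers, reached 26.3 and 24.97 FPKM from 10.6 and 10.1 FPKM. The largest ratio of the group, 3.83, was that of GRMZM2G086430, with an SPX domain that senses phosphate status, at 5.71 and 21.9 FPKM. The 5 genes of nitrogen and sulphur assimilation had ratios of 2.12 to 2.69. Among them were a glutamate decarboxylase gene (GRMZM2G017110, 33.5 and 71.2 FPKM), the asparagine synthetase gene asn2 (GRMZM2G093175, 28.9 and 64.3 FPKM) and a cysteine synthase gene (GRMZM2G036708, 28.9 and 64.5 FPKM). Glutamine synthetase fixes ammonium, and its genes GRMZM2G050514 and GRMZM2G046601 were at 14.7 and 39.4 FPKM and at 9.002 and 22.1 FPKM, the latter with an overlap with another locus.

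The cytoskeleton group consisted of the beta tubulin genes TUBB4 (GRMZM2G066191), at 22.9 and 60.8 FPKM, and TUBB3 (GRMZM2G108766), at 18.1 and 47.2 FPKM. Beta tubulin pairs with alpha tubulin to build microtubules. The other 5 named beta tubulin genes had ratios of 0.67 to 1.04, and the 7 genes summed to 959 FPKM in wild type and 957 FPKM in fdl1-Mu. A higher level of TUBB3 and TUBB4 was thus not a higher sum of beta tubulin FPKM.

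The 20 genes with no description ranged from 20.4 to 2321 FPKM in fdl1-Mu. After AC206425.3_FG002, the most abundant was GRMZM5G806182, at 80.4 FPKM in wild type and 277 FPKM in fdl1-Mu, whose locus overlaps another. GRMZM2G075315 went from 35.4 to 114 FPKM. GRMZM2G026143, GRMZM2G470882 and GRMZM2G052100 reached 82.3, 79.6 and 75.9 FPKM from 40.04, 38.9 and 29.6 FPKM, and GRMZM2G474119 reached 53.1 FPKM from 15.3 FPKM. The largest ratios of the 20 were those of GRMZM2G701767, at 4.29 and 20.7 FPKM, and AC155610.2_FG009, at 5.67 and 27.0 FPKM, and the locus of the latter overlaps another. AC233788.2_FG002, the shortest locus of the 172 at 150 bp, was at 14.6 and 51.3 FPKM. Their loci had a median length of 1120 bp. Short loci carry few fragments, and the length of a transcript enters every FPKM value.

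A further 7 genes have a description outside these groups. The most abundant, GRMZM2G176998, a gene like the DPP6 N-terminal domain, was at 104 FPKM in wild type and 260.0 FPKM in fdl1-Mu, and the largest ratio, 5.15, was that of the cupin gene GRMZM2G078441, at 3.89 FPKM in wild type. A nucleoside diphosphate kinase gene, GRMZM2G134797, for an enzyme that balances nucleotide pools, was at 30.5 and 81.3 FPKM. The other 4, GRMZM2G013957, GRMZM2G066516, GRMZM2G100349 and GRMZM2G099487, reached 42.1, 40.7, 33.5 and 25.8 FPKM from 19.2, 19.7, 10.6 and 12.8 FPKM.

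Of the 172 genes, 19 are also on a list of genes bound by FDL1 protein in vitro in the study's supplement. That list holds only genes that differed between the groups. The paper also counts the bound genes among all those it called higher in the mutant, at its own threshold. The share bound among the 172 genes was not compared with that share or with the share over all genes. The count is therefore no result about these genes as a set, and binding in coleoptile tips was not measured. Those in the wall group are expa1, expA3, expB5, the XTH32-like gene GRMZM2G413044 and an expansin-like gene, GRMZM2G114322. Among the others are AGA1, TUBB3, the remorin gene GRMZM2G122937, the beta glucosidase gene GRMZM2G120962 and the MATE gene GRMZM2G151903.

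In length, the loci of the 172 genes ran from 150 to 37523 bp, with a median of 2136 bp, against 4378 bp for the other 6773 abundant genes. Loci over 5000 bp made up 16.9% of the 172 and 41.8% of the other abundant genes. Divided by length, 5.28% of abundant loci under 1 kb had a ratio of at least 2, 9.39% of those of 1 to 2 kb, 1.97% of those of 2 to 5 kb and 1.01% of those of 5 kb or more. In the lower direction, 26 genes of at least 20 FPKM in wild type had a ratio of 0.5 or less, with a median locus of 1426 bp. They made up 2.29% of such loci under 1 kb, 1.51% of those of 1 to 2 kb, 0.264% of those of 2 to 5 kb and 0.0691% of those of 5 kb or more. In both directions, large differences were thus more frequent among loci under 2 kb. Lengths are those of the locus with introns, and the part of read number or transcript length in this order was not tested.

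**Figure D5:**
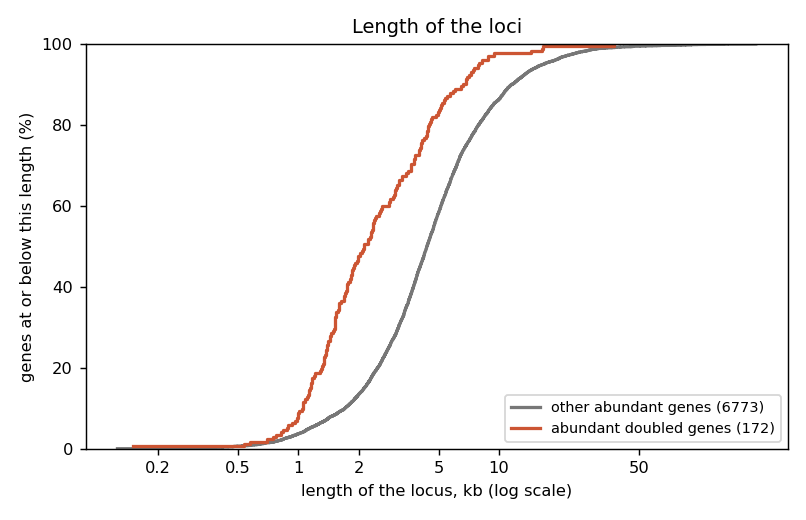
Cumulative share of genes (y axis, %) against length of the locus (x axis, kb, log scale) for the 172 abundant genes with a ratio of at least 2 (red) and the 6773 other abundant genes (grey). The red curve lies to the left, with medians of 2136 and 4378 bp.

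Along the genome, the genes lay on all 10 chromosomes, with 27 each on chromosomes 1 and 2 and 10 on chromosome 6. The share of abundant genes with a ratio of at least 2 ran from 1.54% on chromosome 4 to 3.48% on chromosome 2. Pairs with at most 5 listed genes between them occurred 6 times and took in 12 of the 172 genes. FDL1 lies on chromosome 7, which held 16 of the genes.

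The closest pair in distance was that of the glutathione S-transferase genes GRMZM2G434541 (77.9 and 172 FPKM) and GRMZM2G447632 (55.6 and 120 FPKM) on chromosome 3, 206915217 to 206950761. Between them lay gst20, of the same family, at 3.08 FPKM in wild type and 9.02 FPKM in fdl1-Mu, and a pair of genes with ratios of 0.99 and 0.94. The difference was thus shared by the 3 family members and not by the other tested genes of the interval. The Rossmann-fold genes GRMZM2G308463 (62.6 and 153 FPKM) and GRMZM2G066840 (77.2 and 187 FPKM) on chromosome 2, 231311211 to 231530670, also share a family, and their ratios were 2.44 and 2.42. Reads shared between such copies cannot be told apart here.

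The other 4 pairs joined genes of different families. On chromosome 5, 14831778 to 14874139, the osmotin-like gene GRMZM2G010048 (12.1 and 34.2 FPKM) lay near TUBB4, and the tested gene between them had a ratio of 1.92. On chromosome 6, 158703023 to 158885330, the gibberellin 2-oxidase gene GRMZM2G427618 lay near an O-methyltransferase gene, GRMZM2G141026 (11.04 and 29.5 FPKM), with a second O-methyltransferase gene between them at a ratio of 1.59. On chromosome 7, 157541397 to 157609225, the LHCB3-like gene was next to GRMZM2G019974 (15.7 and 36.4 FPKM), for an organic cation carrier, with no listed gene between. On chromosome 2, 23614588 to 23942039, the remorin gene GRMZM2G122937 (19.4 and 52.7 FPKM) and the lipid-binding gene GRMZM2G136486 had 5 listed genes between them, of which the Rossmann-fold gene GRMZM2G354909 was at 4.41 and 13.8 FPKM, a ratio of 3.14. Of the nearest tested neighbours on either side of the 172 genes, 9.30% had a ratio of at least 2, against 5.06% of those of the other abundant genes. These neighbours include the adjacent pair on chromosome 7, whose genes were themselves selected for a ratio of at least 2. The median ratio was 1.04 for neighbours of the 172 genes and 1.01 for those of the other abundant genes, and the difference was not tested.

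At the edge of the rule, the genes just inside the ratio of 2 were GRMZM2G031177, GRMZM2G120539 and GRMZM2G085411, with ratios of 2.003, 2.004 and 2.008. Just outside were GRMZM2G055698, GRMZM2G129019 and GRMZM2G428518, with ratios of 1.999, 1.998 and 1.994. By level, GRMZM2G078441, GRMZM2G370193 and GRMZM2G039278 were just inside at 20.05, 20.39 and 20.39 FPKM in fdl1-Mu. Just outside, AC217293.3_FG007, a homolog of wall-associated kinase 2, was at 19.995 FPKM with 0.88 FPKM in wild type, a ratio of 22.7 that exceeds any of the 172. GRMZM2G049790 and GRMZM2G114639 followed at 19.7 and 19.6 FPKM. The 3 genes on either side of an edge thus differed little in the quantity the edge was set on, but not in the other values.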

How the data were processed

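The authors trimmed reads of stranded mRNA libraries with Trimmomatic, mapped them to B73v3 with TopHat2 2.1.1 and compared the groups with Cuffdiff, per the labels and methods. The Trimmomatic and Cuffdiff versions and the gene annotation are not given in the sources used here. The deposited table holds the authors' FPKM per gene for each group over its 3 samples. It also holds Cuffdiff's own comparison (log2 fold change, statistic, p-value, q-value and call), which was not used. No column holds values per sample, so no test was run, and read depth is unknown. Ratios and gains were computed from the deposited FPKM without a pseudocount, and 1 was added to each locus start, as the table counts from 0.

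The members and lists were chosen with earlier results of these data known. Descriptions and homologs came from the annotation columns of the study's supplementary gene lists, in which 170 of the 172 genes were found. Gene names came from RefSeq synonyms (assembly Zm-B73-REFERENCE-NAM-5.0, matched by gene ID for 135 of the 172, with no coordinates used). Functional groups are matches of words in the description. Values are given for the 20 largest gains, the 15 largest ratios, genes by gain within each group up to 8, pairs along a chromosome, and 3 genes on each side of each threshold. The other genes with values (expB5, gst7, GRMZM2G129189, GRMZM2G323830, GRMZM2G114471, BX14, the MtN3 genes and GRMZM2G060918) were added after their values were seen, as examples of a family or pathway. Genes of a family outside the rule were found by name. The markers ssu2 and rth1 were not matched. Promoter motifs and protein sequences were not analysed here. Code was checked on simulated tables. Alternatives were other thresholds, a pseudocount of 1, a wild-type minimum of 1 FPKM, rescaling, and leaving out overlapping loci. Python 3.11.15, numpy 2.4.6, pandas 2.3.3 and matplotlib 3.10.9 were used.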

Additional observations from a re-analysis of the deposited data

How the results depend on the processing

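The number of genes depended on the thresholds. It was 290 with a minimum of 10 FPKM, 81 with 50 FPKM, 38 with a ratio of at least 3 and 521 with a ratio of at least 1.5, against 172. The median gain was 15.6 FPKM with a minimum of 10 FPKM and 56.5 FPKM with 50 FPKM, against 27.7. These follow from the construction of each rule. A pseudocount of 1 kept 154 of the 172 genes, division by the median ratio 160, rescaling to equal summed FPKM 145, and leaving out overlapping loci 165, while a wild-type minimum of 1 FPKM kept all 172. The median ratio stayed between 1.79 and 3.59 in the 9 alternatives. With a pseudocount of 1, the 15 largest ratios lay between 3.87 and 10.9. Without the 10 most abundant genes of each group, those of the 172 that remained held 1.06% of the summed FPKM in wild type and 2.18% in fdl1-Mu. AC206425.3_FG002, at rank 6 in fdl1-Mu, was itself left out there, whereas at rank 33 in wild type it was kept. These shares therefore cover different sets of genes and are not compared. Genes in a run numbered 2 with no listed gene between them and 18 with at most 10, against 12. The alternative on promoter motifs was not run. No paired analysis was possible because the deposited values are pooled over samples, and for the same reason no replicate could be left out. Depth is unknown, so counting error cannot be given.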
